A study of Mus musculus with 6 samples.

Results

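The genes of cholesterol synthesis described here are Hmgcs1, Idi1, Fdft1, Sqle, Cyp51 and Dhcr7, which encode enzymes of the pathway, and Insig1, which encodes a regulator of it. They were taken by symbol from a list drawn up with earlier results of these data known, and all 7 were found among the 57170 gene identifiers of the count table. All 7 passed the filter on low counts, as did 17707 genes in all. None of the 7 encodes an uptake receptor, so uptake is described from the genes of a separate list.

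The study profiled whole mouse testis at postnatal day 5 by bulk sequencing of polyadenylated RNA. The sKO group (4 libraries, sKO-1 to sKO-4) came from mice with a conditional knockout of Mdm2 in germ cells before meiosis, and the WT group (2 libraries, WT-1 and WT-2) from wild-type mice. Mdm2 encodes the ubiquitin ligase that keeps the tumour suppressor p53 low. The sources used here give neither the Cre driver nor the floxed allele. They also do not tie libraries to single animals, and a p-value therefore reflects library-to-library spread, which may be technical. The deletion was aimed at germ cells, whereas each library holds RNA of all cells of the testis.

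Cells make cholesterol from acetyl-CoA through the mevalonate pathway, which yields isoprenoid units, squalene and then sterols. When sterols in the endoplasmic reticulum are scarce, the escort protein SCAP carries the transcription factor SREBP2 (gene Srebf2) to the Golgi, where it is cut and released to raise transcription of nearly every enzyme of the pathway. INSIG proteins hold SCAP back when sterols are plentiful, and Insig1 is itself a target of SREBP. In the testis, cholesterol is the precursor of the androgens made by Leydig cells and a component of the membranes of dividing germ and Sertoli cells.

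The sequences upstream of the annotated start are shown for the 4 members with 1 start in the RefSeq table of build GRCm38.p6, because the members are known as genes regulated together by sterols. The table held 5 of the 7 members: Dhcr7 has several starts and is not printed, and Sqle and Fdft1 had no entry. Each run gives the 250 bases before the start, 5′ to 3′ on the strand of the gene. The windows are chr13:119690101-119690350 on the plus strand for Hmgcs1, chr13:8885356-8885605 on the plus strand for Idi1, chr5:4104698-4104947 on the minus strand for Cyp51 and chr5:28071162-28071411 on the plus strand for Insig1. Capitals mark matches, on either strand, to TCACNCCAC (a sterol regulatory element), CCAAT (the box bound by NF-Y), GGGCGG (the GC box bound by Sp1) or CACGTG (an E-box).
Hmgcs1: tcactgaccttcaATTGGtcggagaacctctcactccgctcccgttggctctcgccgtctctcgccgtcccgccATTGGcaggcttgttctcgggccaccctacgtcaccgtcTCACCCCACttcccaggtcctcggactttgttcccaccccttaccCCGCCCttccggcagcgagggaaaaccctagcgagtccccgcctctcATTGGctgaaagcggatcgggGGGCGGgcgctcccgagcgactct
Idi1: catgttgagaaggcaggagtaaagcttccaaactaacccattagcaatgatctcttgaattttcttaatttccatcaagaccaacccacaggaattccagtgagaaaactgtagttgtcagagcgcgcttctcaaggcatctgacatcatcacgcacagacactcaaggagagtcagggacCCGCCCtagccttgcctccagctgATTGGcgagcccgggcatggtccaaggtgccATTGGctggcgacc
Cyp51: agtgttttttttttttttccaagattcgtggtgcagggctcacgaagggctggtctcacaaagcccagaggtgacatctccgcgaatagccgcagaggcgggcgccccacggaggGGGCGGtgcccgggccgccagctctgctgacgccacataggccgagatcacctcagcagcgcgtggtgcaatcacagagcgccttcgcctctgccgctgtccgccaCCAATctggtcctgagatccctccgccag
Insig1: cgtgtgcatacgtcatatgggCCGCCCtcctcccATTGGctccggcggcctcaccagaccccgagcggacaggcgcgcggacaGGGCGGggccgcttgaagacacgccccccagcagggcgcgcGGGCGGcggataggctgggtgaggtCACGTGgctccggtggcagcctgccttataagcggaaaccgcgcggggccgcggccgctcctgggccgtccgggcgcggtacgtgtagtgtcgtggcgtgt

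Of these windows, Hmgcs1 alone held a match to the sterol regulatory element, from base −137 to base −129 counted from the start. That motif was present in 1.05% of the 32851 upstream windows of the same length. Each of the 4 windows held a CCAAT box, which 33.8% of all windows held, and a GC box, which 32.7% held. Hmgcs1 had 3 CCAAT boxes, Idi1 had 2, and Cyp51 and Insig1 had 1 each. Insig1 also had an E-box from −101 to −96, a motif of 6.02% of windows. No matches overlapped each other in the printed windows, and a match describes letters only, not a bound factor.

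The libraries held 17.99 to 18.39 M (mega) expected counts, with 25074 to 26556 genes detected. Mdm2 was at 37.6 to 47.3 CPM (expected counts scaled to one common library size) in the sKO libraries and at 67.2 and 75.9 CPM in WT, and the edgeR adjusted p of its log2 fold change of −0.74 was 0.0241. Leaving out WT-1, WT-2, sKO-2 or sKO-3 ended that call, with an adjusted p of 0.171, 0.111, 0.0561 and 0.0739 in turn. The first principal component, 38.1% of the variance, separated sKO-3, sKO-4 and WT-2 (subset 2) from sKO-1, sKO-2 and WT-1 (subset 1), and the second, 32.6%, separated sKO from WT. No label gives a batch, and the origin of the subsets is not known. Library scaling factors also followed the subsets, at 0.958 to 0.979 in subset 2 and 1.02 to 1.06 in subset 1. The members are therefore given library by library, and fits with and without a term for the subset are set side by side.

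No member passed the test between sKO and WT testes over all 6 libraries. By edgeR's quasi-likelihood test with Benjamini-Hochberg adjustment, 0 of the 7 members passed an adjusted p of 0.05, where 2.43% of all genes tested did (2.3% lower in sKO and 0.124% higher). None had an unadjusted p under 0.05, and DESeq2 and limma-voom also called 0. At no member did the sKO and WT values separate, against 23% of all genes (13.3% with sKO lower and 9.79% with sKO higher). The median log2 fold change of the members was −0.13, beside 0.03 over all genes. The members divided instead by library subset: 6 of the 7 were higher in every subset 2 library than in every subset 1 library. That pattern was found in 18.3% of all genes, beside 20.7% with subset 2 lower. The members were proposed with this difference known, so the count is a description and not a test. With the subset in the model Idi1 and Insig1 were lower in sKO, as were 8.65% of all genes.

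**Figure D1:**
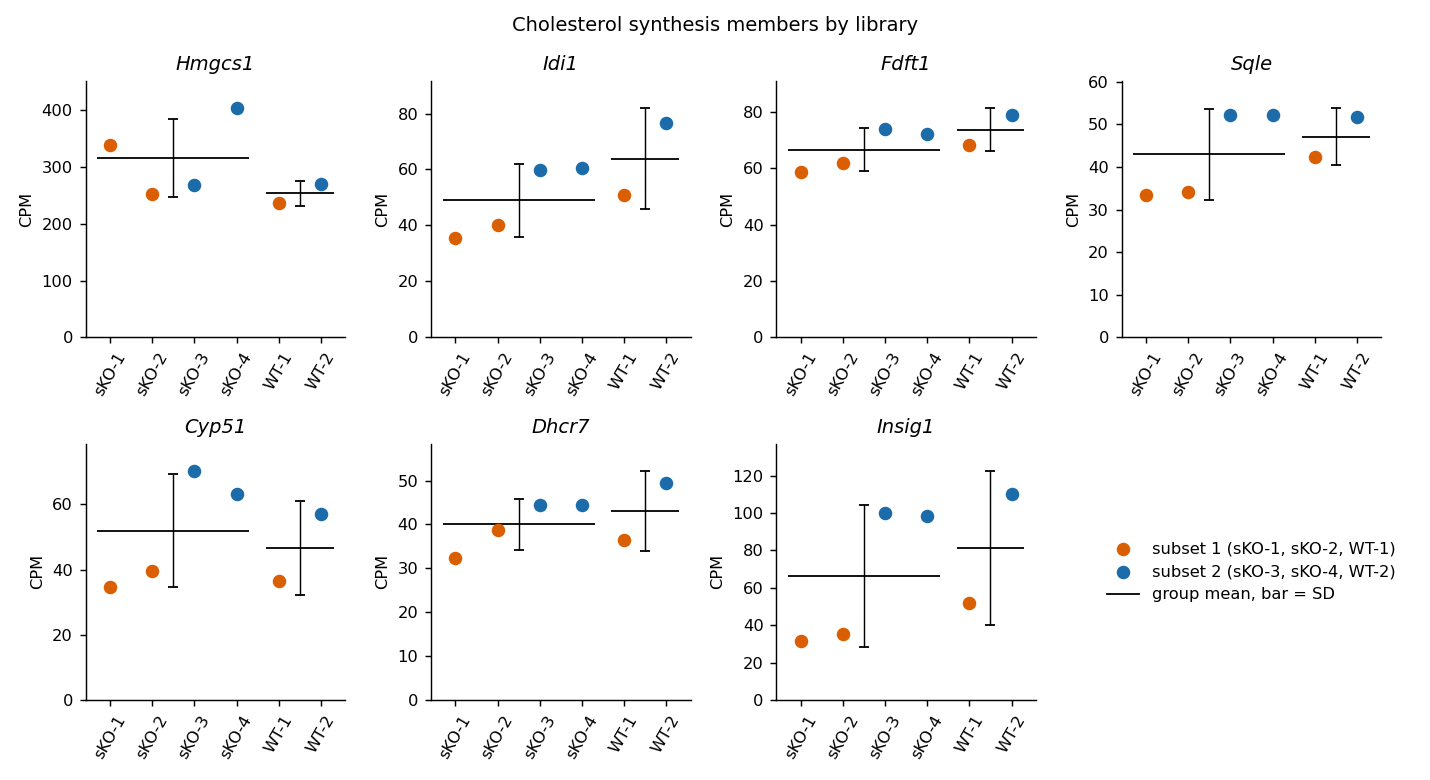
Level of each member (vertical axis, CPM) in the 4 sKO and the 2 WT libraries (horizontal axis), with points coloured by library subset; lines are group means and bars are SD (n = 4 and n = 2). For every member except Hmgcs1 the subset 2 points lie above the subset 1 points, and at no member do the sKO and WT points separate.

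Hmgcs1 encodes the synthase that condenses acetoacetyl-CoA with acetyl-CoA to HMG-CoA, early in the mevalonate pathway. It had 339, 252, 269 and 403 CPM in sKO-1 to sKO-4, against 238 and 269.7 CPM in WT-1 and WT-2. The highest values were those of sKO-4 and sKO-1, which belong to different subsets, and sKO-2 and sKO-3 lay within the range of the WT libraries. The means were 316 ± 69.3 CPM (SD, n = 4) in sKO and 254 ± 22.7 CPM (SD, n = 2) in WT. The log2 fold change was 0.32 (SE 0.19, 95% interval −0.13 to 0.76, edgeR adjusted p = 0.575). The deposited counts of Hmgcs1, Cyp51 and Dhcr7 were not whole in any of the 6 libraries, and those of Fdft1 in 5, as happens where reads are divided among genes.

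Idi1 encodes the isomerase that interconverts the isoprenoid units of the pathway. It had 35.4, 40.0, 59.8 and 60.6 CPM in sKO-1 to sKO-4, against 51.0 and 76.5 CPM in WT-1 and WT-2. The sKO-3 and sKO-4 values lay above WT-1 but below WT-2, so the groups overlapped although each sKO library was below the WT library of its own subset. The means were 48.9 ± 13.1 CPM (SD, n = 4) in sKO and 63.7 ± 18.05 CPM (SD, n = 2) in WT, with a log2 fold change of −0.38 (SE 0.26, 95% interval −0.98 to 0.22, edgeR adjusted p = 0.634). Leaving out WT-1 gave −0.65, and leaving out WT-2 gave −0.087.

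Fdft1 encodes squalene synthase, which commits isoprenoids to sterols. It had 58.6, 61.7, 74.1 and 72.0 CPM in sKO-1 to sKO-4, against 68.4 and 79.0 CPM in WT-1 and WT-2. Each sKO library was again below the WT library of its subset, by less than the distance between the subsets in sKO. The log2 fold change was −0.15 (SE 0.13, edgeR adjusted p = 0.728), between means of 66.6 ± 7.59 CPM (SD, n = 4) in sKO and 73.7 ± 7.54 CPM (SD, n = 2) in WT.

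Sqle encodes squalene epoxidase, an oxygen-dependent and rate-controlling step. It had 33.5, 34.0, 52.2 and 52.3 CPM in sKO-1 to sKO-4, against 42.4 and 51.8 CPM in WT-1 and WT-2. The sKO libraries of subset 1 were below WT-1, while those of subset 2 were at the level of WT-2. The means were 43.0 ± 10.7 CPM (SD, n = 4) in sKO and 47.1 ± 6.62 CPM (SD, n = 2) in WT, and the log2 fold change was −0.13 (SE 0.22, 95% interval −0.65 to 0.38, edgeR adjusted p = 0.884).

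Cyp51 encodes the cytochrome P450 that demethylates lanosterol, the first sterol of the pathway. It had 34.7, 39.7, 70.2 and 63.2 CPM in sKO-1 to sKO-4, against 36.4 and 56.9 CPM in WT-1 and WT-2. Both sKO libraries of subset 2 were above WT-2, while those of subset 1 lay on either side of WT-1. The means were 51.9 ± 17.4 CPM (SD, n = 4) in sKO and 46.7 ± 14.5 CPM (SD, n = 2) in WT. The log2 fold change was 0.15 (SE 0.32, 95% interval −0.58 to 0.89, edgeR adjusted p = 0.911), and its sign turned to −0.13 without WT-1 and to −0.02 without sKO-3.

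Dhcr7 encodes the reductase that forms cholesterol in the last step of one branch of the pathway. It had 32.4, 38.7, 44.5 and 44.5 CPM in sKO-1 to sKO-4, against 36.6 and 49.5 CPM in WT-1 and WT-2. WT-2 was highest and sKO-1 lowest, with WT-1 between the sKO libraries of its subset. The means were 40.1 ± 5.77 CPM (SD, n = 4) in sKO and 43.0 ± 9.13 CPM (SD, n = 2) in WT, and the log2 fold change was −0.10 (SE 0.17, edgeR adjusted p = 0.885). Without WT-2 it was 0.10.

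Insig1, the sterol-regulated anchor of SCAP, varied most among libraries relative to its mean. It had 31.5, 35.2, 100.2 and 98.5 CPM in sKO-1 to sKO-4, against 52.0 and 110.3 CPM in WT-1 and WT-2. The 3 libraries of subset 2 were all far above the 3 of subset 1, and in each subset the WT library was the highest. The means were 66.4 ± 38.1 CPM (SD, n = 4) in sKO and 81.1 ± 41.3 CPM (SD, n = 2) in WT. The log2 fold change of −0.29 had an SE of 0.54 and a 95% interval of −1.54 to 0.96 (edgeR adjusted p = 0.899), and without WT-2 it was 0.33.

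Per kb of exon, Hmgcs1 was the most abundant member in both groups, at 68.8 ± 15.1 CPM per kb (SD, n = 4) in sKO and 55.2 ± 4.95 CPM per kb (SD, n = 2) in WT. Insig1, Fdft1, Idi1 and Cyp51 followed in sKO at 21.5, 15.8, 14.0 and 11.8 CPM per kb, with neighbours in this order differing by less than the larger of their SDs. Sqle at 7.75 ± 1.93 and Dhcr7 at 6.89 ± 0.992 CPM per kb were lowest in sKO, and did not differ beyond their spread. In WT the order of levels was the same except that Idi1, at 18.2 CPM per kb, stood above Fdft1, at 17.4 CPM per kb.

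The members differed between the library subsets in both genotypes. Insig1 was 2.98-fold higher in sKO-3 and sKO-4 than in sKO-1 and sKO-2, and 2.12-fold higher in WT-2 than in WT-1. Cyp51 was 1.79-fold higher in sKO and 1.56-fold higher in WT on the same comparison, and Idi1 1.60-fold and 1.501-fold higher. Sqle followed with 1.55-fold in sKO and 1.22-fold in WT, Dhcr7 with 1.25-fold and 1.35-fold, and Fdft1 with 1.21-fold and 1.16-fold. Hmgcs1 was 1.14-fold higher in both genotypes on average, yet its subset 2 and subset 1 libraries overlapped. The median of these ratios was 1.55 in sKO and 1.35 in WT over the members, beside 0.982 and 0.995 over all genes tested. The subsets were read from the same libraries and the members were proposed with this difference known, so it is a description with no test.

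**Figure D2:**
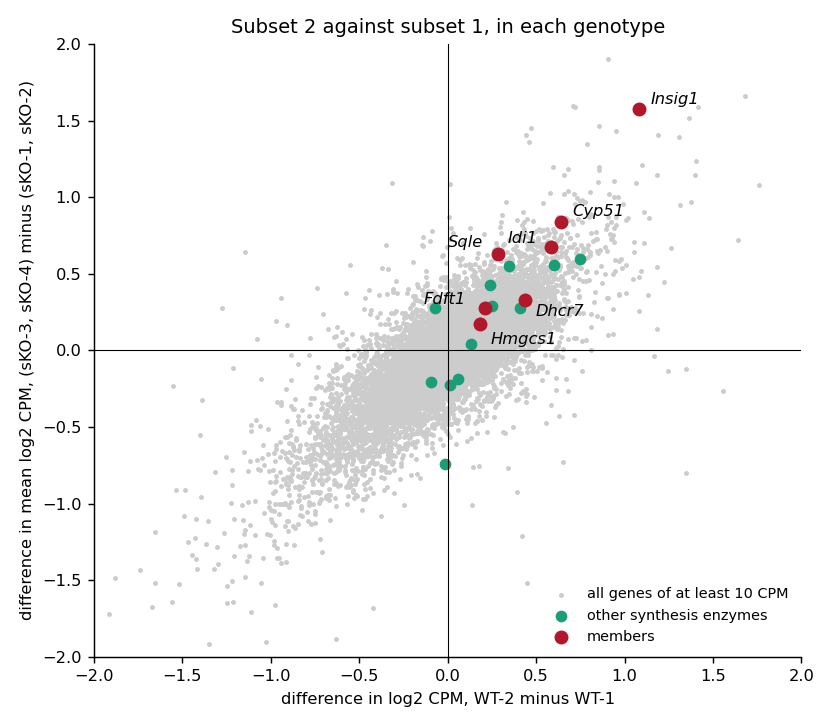
Difference between subset 2 and subset 1 in log2 CPM, in sKO (vertical axis, mean of sKO-3 and sKO-4 minus mean of sKO-1 and sKO-2) and in WT (horizontal axis, WT-2 minus WT-1), for genes of at least 10 CPM (grey), other synthesis enzymes (green) and members (red). All 7 members lie in the upper right quadrant, with Insig1 farthest out and Hmgcs1 and Fdft1 nearest to the centre.

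With a term for the library subset in the model, 2 of the 7 members, Idi1 and Insig1, were lower in sKO and 0 were higher, where 13.6% of all genes tested passed, 8.65% lower and 4.97% higher. Idi1 had a log2 fold change of −0.39 (SE 0.07, 95% interval −0.54 to −0.24, edgeR adjusted p = 0.00716). Insig1 had a log2 fold change of −0.38 (SE 0.10, 95% interval −0.61 to −0.15, edgeR adjusted p = 0.0396). Fdft1 at −0.15 (SE 0.06, adjusted p = 0.120) and Sqle at −0.16 (SE 0.08, adjusted p = 0.251) did not pass, nor did Hmgcs1 at 0.32 (SE 0.16, adjusted p = 0.218), Cyp51 at 0.13 (adjusted p = 0.335) and Dhcr7 at −0.10 (adjusted p = 0.497). At Idi1, Fdft1 and Insig1 both sKO libraries were below the WT library of their subset in both subsets, as in 22.6% of all genes, and at 0 members both were above it, as in 25.4% of all genes. The subset term was itself read from these libraries, which can make its p-values too small. In bulk tissue, fewer cells of a type and less RNA per cell cannot be told apart. The summed germ cell markers were lower in the same sKO libraries, at 64.9 to 111 CPM against 385 and 555 CPM in WT, and their part in these results was not tested.

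**Figure D3:**
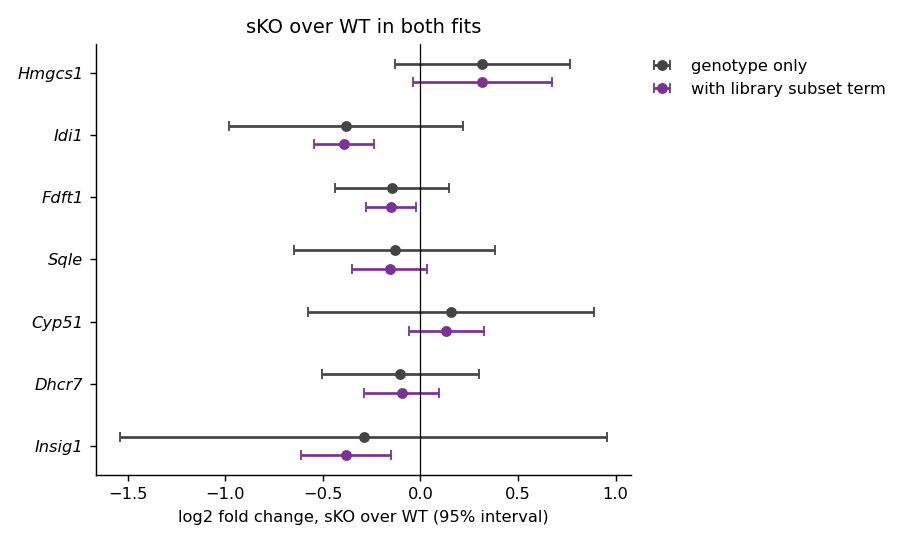
Log2 fold change of sKO over WT (horizontal axis) with its 95% interval for each member (vertical axis), from the model with genotype only (grey, drawn above) and from the model with a library subset term (purple, drawn below it). The estimates barely move, while the intervals of Idi1, Fdft1 and Insig1 exclude 0 only with the subset term.

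The difference between genotypes was also compared between the subsets. Within subset 2 alone Idi1 was the 1 member called, at −0.35 (edgeR adjusted p = 0.0413), and within subset 1 alone Insig1 was, at −0.66 (edgeR adjusted p = 0.0153). Of all genes, 4.74% were called in subset 2 and 6.68% in subset 1, and each of these fits takes its spread from 2 sKO libraries. For Insig1 the interaction of genotype with subset was 0.49 (SE 0.12, unadjusted p = 0.00479 and adjusted p = 0.801 in edgeR). For Sqle the interaction was 0.34 (SE 0.12, unadjusted p = 0.0249 and adjusted p = 0.801 in edgeR). Thus 0 of the 7 members passed this test after adjustment and 2 had an unadjusted p under 0.05, where 0.00565% of all genes passed and 5.98% had such an unadjusted p. Each subset holds 1 WT library, which leaves 2 residual degrees of freedom.

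The rest of the pathway was mixed. Of the 5 other mevalonate genes 1 (Mvk, mevalonate kinase) and of the 8 other sterol genes 4 (Msmo1, Nsdhl, Sc5d and Tm7sf2) were higher in every subset 2 library than in every subset 1 library, where 18.3% of all genes were. Within sKO the median ratio of subset 2 to subset 1 was 0.875 over these mevalonate genes and 1.21 over these sterol genes, and within WT 1.04 and 1.17. Without Hmgcs1, the other 18 enzymes summed to 513, 554, 688 and 669.8 CPM in sKO-1 to sKO-4, against 619 and 754 CPM in WT-1 and WT-2. In each subset both sKO libraries were thus below their WT library, while the sKO libraries of subset 2 were above WT-1. In the comparison of genotypes 0 of the 19 enzymes passed the test, and with the subset term 4 were lower in sKO and 0 higher, where 8.65% of all genes were lower and 4.97% higher. These were Idi1, Mvd, Fdps and Lbr.

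Fdps, the farnesyl diphosphate synthase, had 47.8, 52.8, 73.0 and 74.5 CPM in sKO-1 to sKO-4, against 77.6 and 98.6 CPM in WT-1 and WT-2. Every sKO value of Fdps was below both WT values, with a step between subsets in both groups. Its log2 fold change was −0.51 (SE 0.20, edgeR adjusted p = 0.333) by genotype alone and −0.52 (SE 0.07, edgeR adjusted p = 0.00208) with the subset term. Acat2, a thiolase that makes acetoacetyl-CoA, had 44.5, 41.5, 37.8 and 36.5 CPM in sKO, against 47.2 and 44.3 CPM in WT (log2 fold change −0.19, SE 0.11, edgeR adjusted p = 0.554). Msmo1, a sterol oxidase, had 37.7, 46.4, 52.7 and 48.6 CPM in sKO, against 39.0 and 51.8 CPM in WT (log2 fold change 0.03, SE 0.17, edgeR adjusted p = 0.971). Acat2 and Msmo1 overlapped between the groups, and Msmo1 was higher in every subset 2 library than in every subset 1 library.

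The groups also did not overlap at Mvd, Lss and Lbr, all lower in sKO, where 13.3% of all genes had such a separation in that direction. Mvd, the mevalonate diphosphate decarboxylase, had 8.05, 8.78, 7.74 and 6.99 CPM in sKO, against 12.1 and 12.6 CPM in WT, with no step between subsets. Its log2 fold change was −0.65 (SE 0.16, edgeR adjusted p = 0.106), and DESeq2 gave an adjusted p of 0.0292. Lbr, a sterol reductase that is also a receptor of the nuclear lamina, had 44.2, 47.9, 56.0 and 55.5 CPM in sKO, against 70.0 and 66.5 CPM in WT (log2 fold change −0.42, SE 0.12, edgeR adjusted p = 0.145). Lss, the lanosterol synthase, was at −0.23 (SE 0.10, edgeR adjusted p = 0.405). Mvd, Lss, Mvk, Nsdhl, Sc5d, Tm7sf2, Srebf2, Insig2, Stard4, Acss2, Nceh1 and Fdxr were named after their values were seen.

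Over all lists around the members, 63 of 65 genes passed the count filter, and 0 passed the test of genotype, with 9 at an unadjusted p under 0.05, which 13.1% of all genes had. DESeq2 called 1, Mvd. With the subset term 6 were lower and 6 higher in sKO, beside 8.65% and 4.97% of all genes. In every subset 2 library 24 of the 63 were higher than in every subset 1 library, and 8 were lower. Of all genes 18.3% were higher and 20.7% lower in this way. The genes that were not tested were Nr1h3 and Hsd3b6, with at most 12 counts in a library.

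Among the 9 other regulators, 5 were higher in every subset 2 library than in every subset 1 library and 1, Insig2, was lower. Of all genes 18.3% were higher and 20.7% lower in this way. Insig2, the other INSIG gene, had 44.7, 40.8, 26.8 and 26.2 CPM in sKO-1 to sKO-4, against 37.6 and 24.7 CPM in WT-1 and WT-2. Srebf2 was at 92.3 to 133 CPM in the sKO libraries, against 120.5 and 149 CPM in WT-1 and WT-2. It showed the step between subsets, and with the subset term it was lower in sKO (log2 fold change −0.26, SE 0.06, edgeR adjusted p = 0.0191). By genotype alone it did not pass (−0.25, SE 0.18, edgeR adjusted p = 0.646). Scap was higher in sKO with that term (0.28, SE 0.05, edgeR adjusted p = 0.00765), and did not pass without it (0.28, SE 0.09, adjusted p = 0.221). It had 217.6, 218, 193 and 196 CPM in sKO-1 to sKO-4, against 174 and 166 CPM in WT-1 and WT-2, so that it was lower in subset 2 within each genotype. Mbtps1, the Golgi protease that makes the first cut in SREBP, was at 0.02 (SE 0.09, edgeR adjusted p = 0.967).

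Of 9 tested genes of uptake and trafficking, 4 were higher in every subset 2 library than in every subset 1 library. Among them were Scarb1, Stard4 and Npc2, and 18.3% of all genes had this pattern. Scarb1, the receptor for high-density lipoprotein, had 190, 203, 325 and 293 CPM in sKO, against 134 and 251 CPM in WT. It was higher in sKO with the subset term (0.42, SE 0.07, edgeR adjusted p = 0.00664), and not without it (0.39, SE 0.30, adjusted p = 0.684), where leaving out WT-1 gave 0.012 and leaving out WT-2 gave 0.89. Stard4, a cytosolic sterol carrier, was lower with the term (−0.36, SE 0.09, edgeR adjusted p = 0.0342), and did not pass without it (−0.33, SE 0.30, adjusted p = 0.748). Npc2, which hands cholesterol out of lysosomes, was at 0.08 (SE 0.13, edgeR adjusted p = 0.883).

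Of 7 tested genes of efflux and storage, 0 were higher in every subset 2 library than in every subset 1 library, and 2 were lower. Of all genes 18.3% were higher and 20.7% lower in this way. Abca1, the pump that loads cholesterol onto apolipoprotein, was lower in subset 2, with 192, 190, 148 and 139.7 CPM in sKO-1 to sKO-4, against 198 and 138 CPM in WT-1 and WT-2. Its log2 fold change was −0.0028 (SE 0.19, edgeR adjusted p = 1). Soat1, which esterifies cholesterol for storage, was at 0.17 (SE 0.13, edgeR adjusted p = 0.676). Nceh1, which hydrolyses cholesteryl esters, was higher in sKO with the subset term (0.39, SE 0.09, edgeR adjusted p = 0.0218), and did not pass without it (0.38, SE 0.11, adjusted p = 0.155).

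Of 7 genes that turn isoprenoids to other products, 0 were higher in every subset 2 library and 4 were lower. Of all genes 18.3% were higher and 20.7% lower in this way. With or without the subset term 0 of the 7 passed. Coq2 of ubiquinone synthesis was at 0.02 and the prenyltransferase subunit Fnta at 0.08 (edgeR adjusted p of 0.969 and 0.81). Of 10 fatty acid genes, which SREBP1 controls, 8 were higher in every subset 2 library, where 18.3% of all genes were. Their median ratios of subset 2 to subset 1 were 1.20 in sKO and 1.17 in WT. The desaturase Scd2 was at 0.21 and the NADPH supplier Me1 at 0.10 (edgeR adjusted p of 0.536 and 0.804). Acss2, which makes acetyl-CoA from acetate, was lower in sKO with the term (−0.58, SE 0.09, edgeR adjusted p = 0.00418), and did not pass without it (−0.57, SE 0.19, adjusted p = 0.225).

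Genes of steroid synthesis, a process that starts from cholesterol, had a median log2 fold change of 0.26 over the 8 tested, with 0 past the test of genotype. Hsd3b1 was at 0.26 (SE 0.12, edgeR adjusted p = 0.426) and Hsd17b3 at 0.20 (SE 0.15, edgeR adjusted p = 0.674). With the subset term 1 was higher, the ferredoxin reductase Fdxr (0.36, SE 0.08, edgeR adjusted p = 0.0191), and 0 were lower. Without the term Fdxr did not pass (0.36, SE 0.11, edgeR adjusted p = 0.21).

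Markers of the cells in the tissue were given the same way, since bulk levels follow the mixture. The 8 germ cell markers summed to 107, 69.9, 64.9 and 111 CPM in sKO-1 to sKO-4, against 555 and 385 CPM in WT-1 and WT-2, and 8 of 8 were lower in sKO by edgeR. The sum was lower in every sKO library than in either WT library. Within WT it was also lower in subset 2. The median ratio of subset 2 to subset 1 over these markers was 0.725 in WT and 0.989 in sKO. The 6 Leydig markers summed to 513, 901, 823 and 813 CPM in sKO, against 482 and 697 CPM in WT, and 0 passed. The 8 Sertoli markers summed to 4178, 3972, 4403 and 4603 CPM in sKO-1 to sKO-4, against 3364 and 4128 CPM in WT-1 and WT-2. This sum was thus higher in subset 2 within each genotype. Clu was its largest part, at 2015 to 2441 CPM in sKO and 1823 and 2287 CPM in WT. By gene, 1 of the 8 (Wt1) was higher in every subset 2 library than in every subset 1 library, where 18.3% of all genes were. The median ratio of subset 2 to subset 1 over the Sertoli markers was 1.03 in sKO and 1.15 in WT. The Sertoli markers did not all go one way between genotypes. Cldn11 and Gata1 were lower in every sKO library than in either WT library, and 3 markers were higher in this way. Of all genes 13.3% were lower and 9.79% higher so. With the subset term 2 (Cldn11 and Gata1) were lower and 2 (Amh and Inha) higher, beside 8.65% and 4.97% of all genes. Amh was the 1 Sertoli marker that passed the test of genotype alone, higher in sKO (log2 fold change 0.45, edgeR adjusted p = 0.0429). That call was lost with RLE factors (adjusted p = 0.0538) and when any 1 of the 6 libraries was left out (adjusted p from 0.0696 to 0.323). The 4 macrophage markers summed to 24.4 to 31.7 CPM in sKO and 30.8 and 30.9 CPM in WT, and 0 passed.

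The stromal, endothelial and peritubular myoid sums were, like the Sertoli sum, higher in subset 2 than in subset 1 within each genotype. The 4 stromal markers summed to 2660 to 3586 CPM in sKO and 2308 and 2936 CPM in WT. Of these markers 3 of the 4 (Pdgfra, Col1a1 and Lum) were higher in every subset 2 library, where 18.3% of all genes were. The 4 endothelial markers summed to 263 to 325 CPM in sKO and 239 and 269 CPM in WT, and the 4 peritubular myoid markers to 453 to 615 CPM in sKO and 571 and 747 CPM in WT, with 1 gene of each list, Kdr and Acta2, higher in every subset 2 library. Of the myoid markers Cnn1 was lower in sKO (log2 fold change −1.73, edgeR adjusted p = 0.0323), a call that was lost when any 1 of the 6 libraries was left out (adjusted p from 0.0538 to 0.268), and the other 3 did not pass. Myh11 had 101.9 to 140.1 CPM in sKO, against 162.7 and 174.7 CPM in WT. The 6 genes of handling stress summed to 275, 242, 206 and 209.6 CPM in sKO-1 to sKO-4, against 211 and 203 CPM in WT-1 and WT-2, so that this sum was lower in subset 2. By gene, 2 of the 6 (Jun and Hspa1a) were lower in every subset 2 library, where 20.7% of all genes were. Fos and Atf3 were on average higher in subset 2 within each genotype. The part of these cells, of handling and of the scaling factors in the level of the members was not tested. Of the 5 adipocyte markers, Lep and Cidec had 0 counts in all libraries and Adipoq at most 3, and the list summed to 15.3 to 20.8 CPM in sKO and 15.4 and 16.5 CPM in WT.

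**Figure D4:**
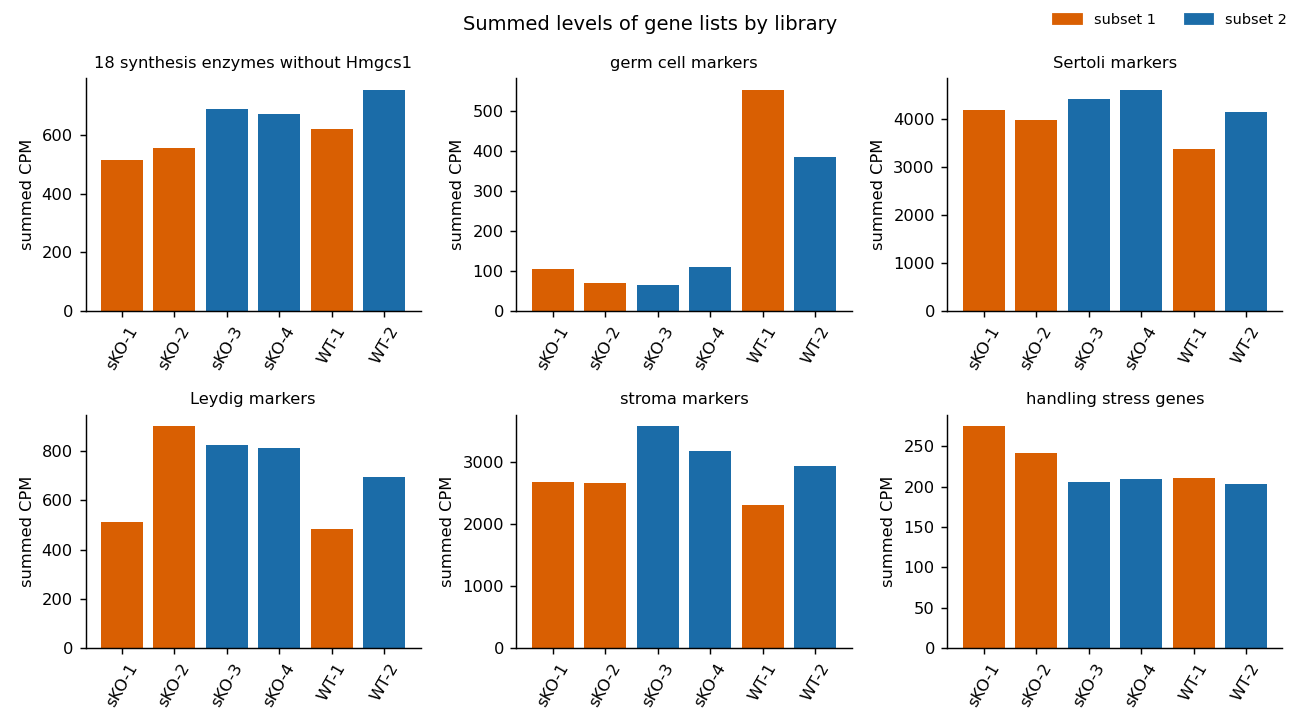
Summed CPM (vertical axis, from 0) of the 18 synthesis enzymes other than Hmgcs1 and of 5 marker lists in each library (horizontal axis, sKO to the left of WT), with bars coloured by library subset and no error bars because each bar is 1 library. The enzyme sum follows the subsets with the WT library highest in each, while the germ cell sum is 64.9 to 111 CPM in sKO and 385 and 555 CPM in WT.

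The genes most like the members over the 6 libraries were Rab31, Sp2, Cemip2, Lrp12 and Kctd6, out of 10008 genes of at least 10 CPM. Likeness was Pearson's r with the mean standardised log2 CPM of the members, and it was 0.999 for Rab31 and 0.9965 for Kctd6. That mean does not represent Hmgcs1, whose own r with it was 0.246, while every other member had 0.9246 or more. The libraries fall into the 2 subsets, so such an r mostly records the step between them and is given as a description. Rab31, a small GTPase of vesicle traffic, had 229, 239, 307 and 313 CPM in sKO-1 to sKO-4, against 251 and 318 CPM in WT-1 and WT-2. Sp2, a zinc finger transcription factor, had 20.2, 22.2, 37.8 and 39.3 CPM in sKO, against 24.9 and 39.7 CPM in WT. Both had the low values in subset 1 and the high values in subset 2, as did Insig1.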

How the data were processed

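Polyadenylated RNA of mouse testis at postnatal day 5 was sequenced in 4 sKO and 2 WT libraries. The authors deposited 1 table of expected counts per gene, made with fastp, STAR and RSEM on build mm39, per the submitters' processing notes. Versions, annotation and strand setting are not stated in those notes. Where a read matches more than 1 gene, RSEM splits it between them. Libraries were grouped by their titles; the design text speaks of 3 replicates per group, and the labels were followed. Symbols came from GENCODE M21 (GRCm38), which named 51742 of 57170 identifiers (90.5%) with 99.2% of the counts. Promoter sequences are those of RefSeq, build GRCm38.p6, and no coordinate of the counts' own build is given.

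Expected counts were rounded and filtered with filterByExpr (minimum count 10), which left 17707 genes, and libraries were scaled by TMM. The main test was edgeR 4.0.16 (quasi-likelihood, two-sided, R 4.3.3) over all genes with Benjamini-Hochberg adjustment, a threshold of 0.05 and no covariate, tested on simulated data. SE is the log2 fold change divided by the root of F, and a prior count of 2 was used for log2 CPM. No 2 libraries agreed within sampling noise: the chi-square per gene was 4.08 or more, where noise alone gives about 1. Totals of 17.99 to 18.39 M (mega) leave counting error small for members, at 596 to 6981 counts.

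Alternatives were DESeq2 1.42.0, limma-voom (limma 3.58.1), RLE and upper-quartile factors, no filter, at least 1 CPM in 4 libraries, each library left out, a replicate block, a subset term and each subset alone. Where 1 WT library was left, its spread was taken to equal that of sKO. Chosen after seeing the data were the 4 libraries numbered 1 and 2 without a block, and the interaction without each sKO library. Members and lists were chosen with earlier results of these data known. Named genes were the members, Mdm2, in each list up to 4 genes past the test or, with none, the 2 most abundant, and the 5 genes most like the members. Mvd, Lss, Mvk, Nsdhl, Sc5d, Tm7sf2, Srebf2, Insig2, Stard4, Acss2, Nceh1, Fdxr and the markers singled out were named after their values were seen. Some genes of the lists are not reported here, and list counts and sums leave them out. No test was run on a list as a whole.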

Additional observations from a re-analysis of the deposited data

How the results depend on the processing

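The count of 0 members past the test of genotype was unchanged with DESeq2, limma-voom, RLE and upper-quartile factors, both other filters and without each library in turn. It was 1 (Insig1, −1.20, adjusted p = 0.0368) with a replicate block over the 4 libraries numbered 1 and 2, 2 (Idi1, −0.39, and Insig1, −0.38) with the subset term, 1 (Insig1, −0.66) in subset 1 alone and 1 (Idi1, −0.35) in subset 2 alone. In those same 4 settings the other pathway genes called numbered 1 (Fdps), 12, 5 and 6, and DESeq2 called 1. Over all genes the count of 430 became 797 with DESeq2, 2411 with the subset term, 1228 in subset 1, 834 in subset 2, 196 for the 4 libraries numbered 1 and 2 with no block, 287 with the block, and 3 (without WT-1) to 232 (without sKO-4) when single libraries were left out. Same-numbered deviations from the group mean correlated at 0.416 and −0.441. With 2 WT libraries the WT deviations mirror each other, and sKO-1 and sKO-2 are both of subset 1. These values therefore cannot tell whether replicate numbers pair the libraries. Among the libraries numbered 1 and 2, only WT-2 is of subset 2, where Insig1 had 110.3 CPM against 52.0 CPM in WT-1. Fits to that set, with or without the block, therefore cannot separate genotype from subset. This limit holds for the −1.20 of Insig1 and for the call of Fdps with the block. The interaction called 1 gene (Gm5898), 0 with no count filter, and 0 to 12 without each sKO library.

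Log2 fold changes of members that turned sign were 0.0052 for Sqle in subset 2, and −0.31 with the block and −0.33 with no block for Cyp51. Leaving out single libraries gave −0.13 to 0.49 for Cyp51, −0.30 to 0.10 for Dhcr7, −0.73 to 0.33 for Insig1, −0.65 to −0.087 for Idi1, 0.012 to 0.89 for Scarb1, −0.16 to 0.22 for Msmo1, −0.20 to 0.028 for Mvk, −0.15 to 0.078 for Nsdhl, −0.34 to 0.24 for Sc5d, −0.049 to 0.68 for Tm7sf2, −0.033 to 0.050 for Mbtps1, −0.12 to 0.27 for Npc2, −0.27 to 0.28 for Abca1, −0.080 to 0.090 for Coq2 and −0.027 to 0.21 for Me1. Signs also turned for Mvk (0.0077 in subset 2) and for Tm7sf2, from 0.28 to −0.021 with the block and −0.058 with no block. They turned too for Msmo1 (−0.040 in subset 2, −0.12 with the block and with no block), Mbtps1 (−0.057 with the block and with no block, −0.014 in subset 1), Npc2 (−0.051 in subset 2, −0.0097 with no block), Coq2 (−0.058 in subset 1), Fnta (−0.025 in subset 2) and Abca1 (0.0059 with limma-voom, 0.0014 with upper-quartile factors, 0.0089 with no filter, 0.20 with the block, 0.0049 with the subset term, 0.056 in subset 2, 0.17 with no block). The cause was not tested.

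With 2 WT libraries, 1 in each subset, leaving one out mixes the subset with genotype. Fits to the libraries numbered 1 and 2, with or without the block, mix them too. The members' intervals without the subset term are wide. Counting error covers sampling of reads only.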
